A study of Mus musculus with 6 samples.

Results

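The 10 genes described here are Cd3d, Cd3e, Cd3g, Cd4, Cd8a, Cd7, Nkg7, Lck, Il2rb and Il2rg, which encode parts of the T cell receptor complex, its co-receptors and kinase, shared interleukin receptor chains and proteins of T cells and cytotoxic lymphocytes. They were taken by gene name from the 26554 features counted in each library, and all 10 were found. The libraries came from VPL/VPM, the ventral posterior nuclei of the thalamus on their lateral and medial sides, which relay touch and pain, of wild-type C57 mice. A group of 3 libraries came from mice given 10 nL of type IV collagenase (0.01 U) into the nuclei on the right side, an enzyme that breaks down vessel walls and is used to cause a small haemorrhage. The control group of 3 libraries came from mice given 10 nL of saline at the same place, and tissue of both groups was taken 14 days later. Age and sex are not given in the labels, and neither is whether animals were pooled for a library, so a p-value here reflects only how much these samples vary. Tissue without an injection was not analysed here.

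T cells recognise peptides on other cells through a receptor whose variable chains carry no signalling tail of their own. The CD3 chains, which sit beside the variable chains, pass the signal inward, and the kinase Lck, held by the co-receptors CD4 or CD8, starts it by phosphorylating motifs on the CD3 tails. CD8 marks most cytotoxic T cells and CD4 most helper T cells. The brain normally holds very few T cells, and Cd4, Lck and Il2rg are also transcribed in cells that are not T cells.

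Total counts ran from 33603076 to 44815451 per library. Levels are given as CPM, counts scaled to library size with TMM factors, or as the deposited FPKM, which also divides by transcript length and is used wherever genes are compared with each other. Where 3 values are given for a group they stand in the order of replicates 1, 2 and 3. The tissue label was checked on 8 thalamic relay neuron markers, whose summed level was 2430 to 3550 CPM in saline and 2370 to 2800 CPM in collagenase libraries, with 0 of 8 called by edgeR, 0 at an unadjusted p under 0.05 and 0 called by DESeq2. Summed markers of other neurons were lower in every collagenase library: cortical and hippocampal markers summed to 529 to 617 CPM in saline and 342 to 370 CPM in collagenase, with 1 of 5 called lower (Slc17a7), and GABAergic markers to 865 to 1150 against 586 to 782 CPM, with 0 of 5 called by edgeR, 3 at an unadjusted p under 0.05 and 0 called by DESeq2. Their part in the levels of the 10 genes was not tested. Other signs of tissue makeup varied within groups. Summed choroid plexus markers were 919, 2560 and 20.6 CPM in saline and 1790, 1950 and 17.5 CPM in collagenase. They were lowest in replicate 3 of both groups, where summed habenula markers were highest (60.3 CPM in saline and 88.6 CPM in collagenase). Summed genes of striatal projection neurons, a list chosen after values were seen, stood at 878 CPM in saline replicate 3 and 282 CPM in collagenase replicate 1, against 115 to 137 CPM in the other 4 libraries.

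Transcripts of the 3 CD3 chains, of Cd8a, of Cd7 and of Nkg7 were counted in every collagenase library and in none of the 3 saline libraries. Il2rb and Il2rg, receptor chains for interleukins, had counts in saline and rose after collagenase. Lck was higher in every collagenase library but did not pass the test, and Cd4 did not follow the others: its highest level was in a saline library. The levels were low throughout. The highest single value of a CD3 chain was 1.28 CPM, and in tissue libraries fewer cells of a type and less RNA per cell cannot be told apart.

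Counts were tested with edgeR's quasi-likelihood test and Benjamini-Hochberg adjustment over 17240 genes that passed a filter on low counts, at a threshold of 0.05. Of the 10 genes 9 passed that filter, and Cd3d did not and was not tested. The test called 7 of the 9 higher and 0 lower, against 2.12% of all tested genes called higher, 0.29% called lower and 2.41% called in either direction. That count cannot be read as support, because 6 of the 9 passed the filter only through the collagenase libraries, which favours genes that are higher there. These were Cd3e, Cd3g, Cd8a, Cd7, Nkg7 and Il2rb, and all but Il2rb had 0 saline counts. Among all 20 tested genes with 0 saline counts, 19 (95%) were called higher. The limma test on log2(FPKM + 0.1) called the same 7 genes. Outside the test, 9 of the 10 genes had no overlap between the groups, while 10.1% of tested genes had all collagenase libraries above all saline libraries. That count cannot be read as support either. For the 6 genes with 0 saline counts, any count in every collagenase library leaves no overlap, and Cd3d is not among the tested genes.

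Cd3d (ENSMUSG00000032094, chromosome 9, 44981786 to 44987339, plus strand), Cd3e (ENSMUSG00000032093, chromosome 9, 44998740 to 45009627, minus strand) and Cd3g (ENSMUSG00000002033, chromosome 9, 44969572 to 44980431, minus strand) are neighbours on GRCm38. They encode the delta, epsilon and gamma chains, which pair with each other beside the variable chains. Transcription of Cd3d and Cd3g starts 1355 bases apart and runs in opposite directions, and Cd3e starts 27825 bases from Cd3d. Their promoters are shown because the 3 genes shared a pattern of counts, with 0 in every saline library and some in every collagenase library. Each runs 5′ to 3′ on the gene's own strand from 250 bases before to 50 bases after the start (RefSeq, GRCm38.p6), with searched motifs in capitals.
Cd3d, chr9:44981536-44981835, plus strand: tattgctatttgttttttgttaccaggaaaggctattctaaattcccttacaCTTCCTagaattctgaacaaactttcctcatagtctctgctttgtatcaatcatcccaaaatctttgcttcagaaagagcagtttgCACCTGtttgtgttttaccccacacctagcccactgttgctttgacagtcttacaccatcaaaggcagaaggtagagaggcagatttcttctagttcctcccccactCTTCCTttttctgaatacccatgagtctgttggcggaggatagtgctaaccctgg
Cd3g, chr9:44980382-44980681, minus strand: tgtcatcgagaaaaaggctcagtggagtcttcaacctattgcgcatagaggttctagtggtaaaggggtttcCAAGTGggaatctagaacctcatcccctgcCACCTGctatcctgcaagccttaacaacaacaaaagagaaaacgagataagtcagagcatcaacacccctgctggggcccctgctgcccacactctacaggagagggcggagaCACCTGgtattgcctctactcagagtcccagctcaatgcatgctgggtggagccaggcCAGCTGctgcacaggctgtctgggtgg
Cd3e, chr9:45009562-45009861, minus strand: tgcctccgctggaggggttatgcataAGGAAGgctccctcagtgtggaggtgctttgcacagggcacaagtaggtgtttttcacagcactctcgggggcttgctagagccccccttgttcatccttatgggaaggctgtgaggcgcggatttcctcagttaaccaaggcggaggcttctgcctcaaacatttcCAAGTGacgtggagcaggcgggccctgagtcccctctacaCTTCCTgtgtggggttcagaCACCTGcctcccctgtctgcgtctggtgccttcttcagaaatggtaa

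The motifs were searched on both strands: the E-box CANNTG, an ETS core AGGAAG, a RUNX core TGTGGT and the TATA box TATAAA. The E-box was found 1 time in the Cd3d, 4 times in the Cd3g and 2 times in the Cd3e promoter, and 72.3% of all 32851 promoters in the RefSeq table hold it. The ETS core was found 2 times each in Cd3d and Cd3e and 0 times in Cd3g, against 35.4% of all promoters with at least 1 match. Neither the RUNX core (16.8% of all promoters) nor the TATA box (13.6%) was found in these 3 sequences. These matches describe the letters only.

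Cd3e had 61, 37 and 15 counts in collagenase, or 1.28, 0.995 and 0.389 CPM, and 0 counts in each saline library. All 3 collagenase libraries lay above the saline group, with replicate 1 the highest. The collagenase mean of 0.888 ± 0.456 CPM (SD, n = 3) was at least 33.4-fold higher than the saline floor. This floor, used for genes with 0 saline counts, was set at 3 counts over the saline group or 0.0266 CPM. The rise passed edgeR's test with a Benjamini-Hochberg adjusted p of 0.0224, but not without saline replicate 1 (0.0914), collagenase replicate 1 (0.0783) or collagenase replicate 2 (0.0822).

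Cd3g had 58, 24 and 25 counts in collagenase (1.22, 0.645 and 0.648 CPM) and 0 counts in each saline library. Again the groups did not overlap and replicate 1 was highest, while replicates 2 and 3 were alike. Its mean of 0.837 ± 0.330 CPM (SD, n = 3) was at least 31.5-fold higher than the saline floor. The adjusted p by edgeR with Benjamini-Hochberg adjustment was 0.0142, and it was 0.0635 without saline replicate 1 and 0.0595 without collagenase replicate 3.

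Cd3d was the lowest of the 3 chains, also per length, with 34, 11 and 7 counts in collagenase (0.714, 0.296 and 0.181 CPM) and 0 in each saline library. Its mean of 0.397 ± 0.281 CPM (SD, n = 3) was at least 14.9-fold above the saline floor, or 8.97-fold without collagenase replicate 1. It was left out by the count filter. With the filter dropped, edgeR gave a Benjamini-Hochberg adjusted p of 0.0445, and DESeq2 gave 0.00307, while limma on log2(FPKM + 0.1) gave 0.129. With 1 library dropped it passed the filter 4 times, and edgeR's adjusted p was 0.197, 0.0873 and 0.0526 without saline replicates 1, 2 and 3 and 0.117 without collagenase replicate 3, so none of these passed the test.

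The zeta chain, Cd247, completes the complex and carries most of its signalling motifs. It was not among the 10 genes and was looked at after its values were seen. Unlike the other chains it had counts in every library, at 1.04, 0.32 and 1.5 CPM in saline and 1.6, 1.72 and 2.75 CPM in collagenase. The groups lay close together without overlapping, and the log2 fold change of 1.08 (SE 0.50) did not pass edgeR's test (Benjamini-Hochberg adjusted p = 0.448).

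Cd8a (ENSMUSG00000053977, chromosome 6, 71373427 to 71379173, plus strand) encodes the CD8 alpha chain, the co-receptor for class I molecules, which is also made by some dendritic cells. It had 152, 38 and 52 counts in collagenase (3.19, 1.02 and 1.35 CPM) and 0 in each saline library. Every collagenase library was above 1 CPM, and replicate 1 held more than the other two together. The mean of 1.85 ± 1.17 CPM (SD, n = 3) was at least 69.7-fold above the saline floor, the highest such bound among the 6 genes without saline counts. Without collagenase replicate 1 the bound was 44.6-fold. The rise passed edgeR's test (Benjamini-Hochberg adjusted p = 0.0142), but the adjusted p was 0.0633 without saline replicate 1 and 0.0575 without collagenase replicate 3.

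Cd8b1, which encodes the beta chain that pairs with CD8 alpha on most cytotoxic T cells, was looked at after its values were seen. It had 53, 21 and 7 counts in collagenase and 0 in saline, at least 23.3-fold above the saline floor (14.0-fold without collagenase replicate 1), and was not tested. On the FPKM scale the ratio of Cd8a to Cd8b1 was 1.40, 0.846 and 3.53 in collagenase, so the 2 chains did not keep to 1 proportion across libraries.

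Cd4 (ENSMUSG00000023274, chromosome 6, 124864692 to 124888221, minus strand) encodes the co-receptor for class II molecules. In saline it had 27, 13 and 446 counts and in collagenase 140, 21 and 24, or 0.608, 0.378 and 13.1 CPM against 2.94, 0.565 and 0.622 CPM. The groups overlapped: saline replicate 3 was the highest library, collagenase replicate 1 the next, and the other 4 lay between 0.378 and 0.622 CPM. Group means were 4.69 ± 7.27 CPM in saline and 1.38 ± 1.36 CPM in collagenase (SD, n = 3 each). The log2 fold change was -1.74 (SE 1.51, 95% interval -5.50 to 2.02), and edgeR's Benjamini-Hochberg adjusted p was 0.751. Without saline replicate 3 the direction turned, with a log2 fold change of 1.48 and an adjusted p of 0.359 by edgeR. Without both saline replicate 3 and collagenase replicate 1, an alternative added after the data were seen, it was 0.25 with an adjusted p of 0.819.

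The Cd4 count in saline replicate 3 came with 0 counts of Cd3d, Cd3e, Cd3g and Cd8a in the same library. By shares of the summed CPM over the 6 libraries, Cd4 had 71.9% in saline replicate 3 and 16.2% in collagenase replicate 1. Chosen after these values were seen, the 5 annotated genes whose shares differed least from it were Gpr6, Sh3rf2, Ido1, Sap25 and Ankrd63, and the same 5 were found from FPKM. Likeness was the fraction of a gene's summed level that would have to move between libraries for the patterns to coincide, and it ran from 0.0365 for Gpr6 to 0.0683 for Ankrd63. Gpr6, a receptor of striatal projection neurons, had 0.744, 0.465 and 12 CPM in saline and 3.00, 0.591 and 0.777 CPM in collagenase.

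All 8 striatal genes were highest in saline replicate 3, and all but Drd2 were higher in collagenase replicate 1 than in the other 2 collagenase libraries. Adora2a, an adenosine receptor of striatal projection neurons, was at 4.6, 4.57 and 50.1 CPM in saline and 16.1, 3.98 and 3.63 CPM in collagenase. Penk, the enkephalin precursor, was at 19.1, 27.3 and 215 CPM in saline and 57.3, 22.9 and 21.4 CPM in collagenase. Drd2, a dopamine receptor, was at 14.2, 11.8 and 70.7 CPM in saline and 18.4, 20.4 and 18.5 CPM in collagenase. Of the 8 striatal genes 0 were called by edgeR, with 0 at an unadjusted p under 0.05 and 0 called by DESeq2, and their median log2 fold change was -1.25. Their part in the Cd4 values was not tested.

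**Figure D1:**
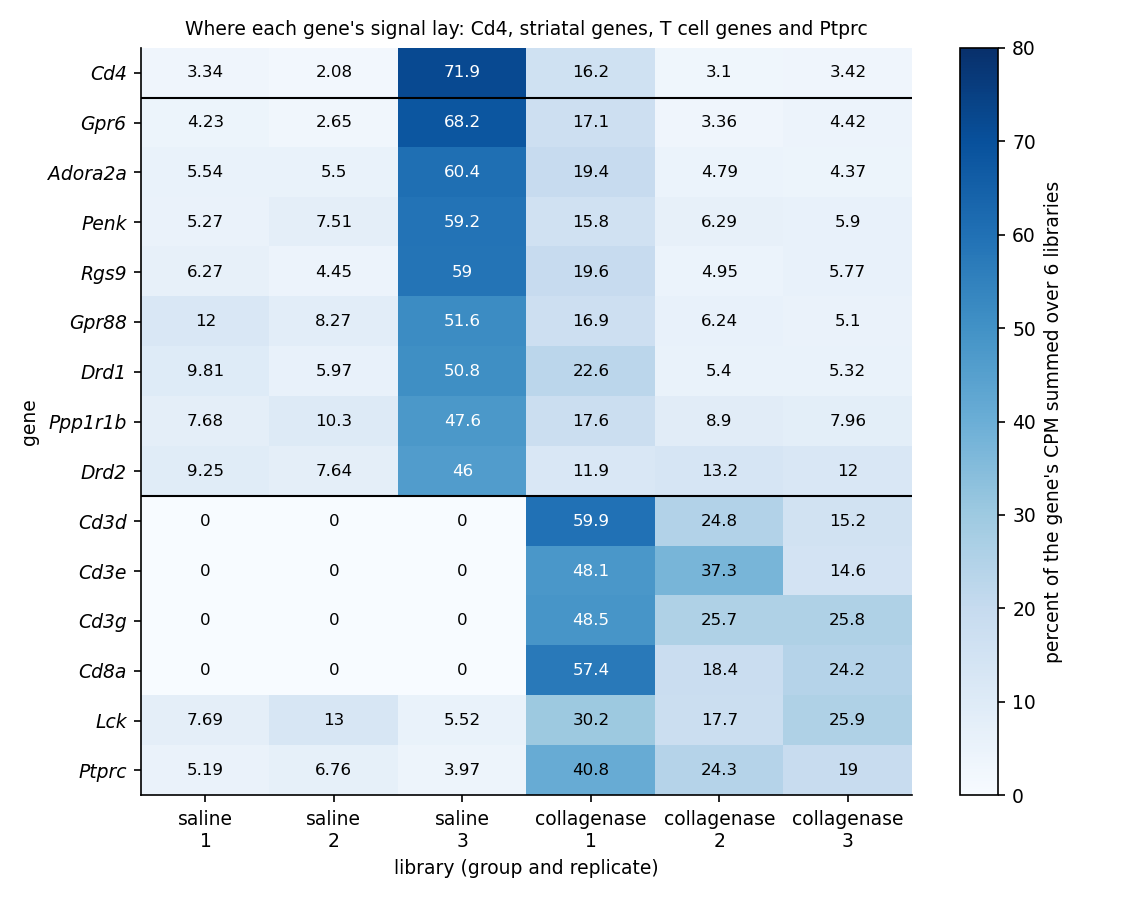
Heat map of the percent of each gene's own CPM, summed over the 6 libraries, that fell in each library. Rows are Cd4, 8 genes of striatal projection neurons, and Cd3d, Cd3e, Cd3g, Cd8a, Lck and Ptprc. Cd4 and the striatal genes have their largest share in saline replicate 3, where the CD3 genes and Cd8a have 0.

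In the collagenase libraries the ratio of Cd8a to Cd4 on the FPKM scale was 1.1, 1.79 and 2.2. Cd8a was thus above Cd4 per length in all 3, but Cd4 also had counts in saline libraries without any CD3 count, so the ratio is one of transcripts and not of T cell classes. The ratio of Cd8a to Cd3e was 1.18, 0.481 and 1.63, above 1 in replicates 1 and 3 and below it in replicate 2.

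Lck (ENSMUSG00000000409, chromosome 4, 129548344 to 129573641, minus strand) encodes the kinase that starts receptor signalling. Unlike the CD3 genes it had counts in every saline library. RefSeq gives it 2 starts, 15269 bases apart, which are shown because the deposited values are 1 sum per gene and do not say which start was used in which group.
Lck, upstream start, chr4:129573592-129573891, minus strand: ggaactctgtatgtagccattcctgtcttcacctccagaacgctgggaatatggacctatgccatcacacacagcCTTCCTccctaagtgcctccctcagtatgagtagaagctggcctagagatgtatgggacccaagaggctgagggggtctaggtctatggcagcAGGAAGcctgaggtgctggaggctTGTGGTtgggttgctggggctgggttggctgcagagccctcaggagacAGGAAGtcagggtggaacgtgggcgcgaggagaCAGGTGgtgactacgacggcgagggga
Lck, downstream start, chr4:129558323-129558622, minus strand: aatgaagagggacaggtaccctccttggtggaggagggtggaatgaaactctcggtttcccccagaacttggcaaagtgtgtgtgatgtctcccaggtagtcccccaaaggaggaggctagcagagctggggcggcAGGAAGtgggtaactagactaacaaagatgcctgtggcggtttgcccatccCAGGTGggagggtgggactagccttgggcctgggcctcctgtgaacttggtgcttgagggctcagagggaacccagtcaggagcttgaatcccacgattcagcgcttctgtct
The upstream promoter held 3 ETS cores, 1 RUNX core and 1 E-box, and the downstream promoter 1 ETS core, 1 E-box and no RUNX core. Neither held a TATA box.

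Lck had 29, 38 and 16 counts in saline and 122, 56 and 85 in collagenase, or 0.653, 1.11 and 0.469 CPM against 2.56, 1.51 and 2.2 CPM. The groups did not overlap, but the highest saline library (replicate 2) came near the lowest collagenase library (replicate 2). Means were 0.743 ± 0.327 and 2.09 ± 0.537 CPM (SD, n = 3 each). The log2 fold change of 1.49 (SE 0.38, 95% interval 0.63 to 2.36) did not pass after adjustment over all genes (edgeR, Benjamini-Hochberg adjusted p = 0.109). DESeq2, run as an alternative, gave an adjusted p of 0.0233. The ratio of Lck to Cd3e in FPKM was 1.36, 1.03 and 3.80 in collagenase, while in saline Cd3e was at 0 and Lck at 0.279, 0.479 and 0.180 FPKM.

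Il2rb (ENSMUSG00000068227, chromosome 15, 78479256 to 78495271, minus strand) encodes the receptor chain shared by interleukins 2 and 15 on T cells and natural killer cells. In saline it had 3, 4 and 6 counts and in collagenase 93, 44 and 44, or 0.0676, 0.116 and 0.176 CPM against 1.95, 1.18 and 1.14 CPM. The lowest collagenase library was several times above the highest saline library. Means were 0.120 ± 0.0543 and 1.43 ± 0.458 CPM (SD, n = 3 each), a log2 fold change of 3.57 (SE 0.47, 95% interval 2.50 to 4.65). The rise passed with the smallest adjusted p of the 9 tested genes (edgeR, Benjamini-Hochberg, 0.00909), and without saline replicate 1 it did not (0.0633). Il2rb passed the count filter only through the collagenase libraries, so its call cannot be read as support.

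Il2rg (ENSMUSG00000031304, chromosome X, 101264378 to 101268255, minus strand) encodes the common gamma chain, used by the receptors of several interleukins and made by leukocytes in general. It had 66, 55 and 44 counts in saline and 290, 142 and 159 in collagenase, or 1.49, 1.60 and 1.29 CPM against 6.09, 3.82 and 4.12 CPM. The saline libraries lay close together and all collagenase libraries were well above them. Means were 1.46 ± 0.157 and 4.68 ± 1.24 CPM (SD, n = 3 each). The log2 fold change was 1.68 (SE 0.25, 95% interval 1.1 to 2.26), with an adjusted p of 0.0152 by edgeR with Benjamini-Hochberg adjustment, and 0.0921 without saline replicate 1.

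Il2rg was set beside Ptprc, the general leukocyte surface phosphatase CD45. In FPKM the ratio of Il2rg to Ptprc was 1.59, 1.31 and 1.82 in saline and 0.769, 0.803 and 1.11 in collagenase. The ratio was thus lower in every collagenase library, while both genes rose by the test (log2 fold changes of 1.68 for Il2rg and 2.40 for Ptprc). For Cd3e the ratio to Ptprc in collagenase was 0.185, 0.236 and 0.120, with Cd3e at 0 in saline.

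Cd7 (ENSMUSG00000025163, chromosome 11, 121036747 to 121039418, minus strand) encodes a small surface protein of T cells and natural killer cells. It had 20, 10 and 13 counts in collagenase (0.420, 0.269 and 0.337 CPM) and 0 in each saline library. The 3 collagenase libraries were close to each other. The mean of 0.342 ± 0.0758 CPM (SD, n = 3) was at least 12.9-fold above the saline floor. The rise passed edgeR's test (Benjamini-Hochberg adjusted p = 0.0298), but when each library was dropped in turn the call held in only 1 of 6 fits, the one without saline replicate 3. In the other 5 the adjusted p was 0.0528 without saline replicate 2 and 0.120, 0.128, 0.0983 and 0.129 without saline replicate 1 and collagenase replicates 1, 2 and 3. With the replicate number as a block edgeR gave 0.112.

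Nkg7 (ENSMUSG00000004612, chromosome 7, 43437073 to 43438249, plus strand) encodes a membrane protein of the cytotoxic granules of natural killer cells and T cells. It had 58, 22 and 16 counts in collagenase (1.22, 0.591 and 0.415 CPM) and 0 in each saline library. The groups did not overlap, and replicate 1 was about as far above replicate 2 as replicate 2 was above 0. The mean of 0.741 ± 0.422 CPM (SD, n = 3) was at least 27.9-fold above the saline floor. The rise passed edgeR's test (Benjamini-Hochberg adjusted p = 0.0254). It did not pass without saline replicate 1 (0.0971) or without collagenase replicate 1, 2 or 3 (0.0725, 0.0759 and 0.0641).

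**Figure D2:**
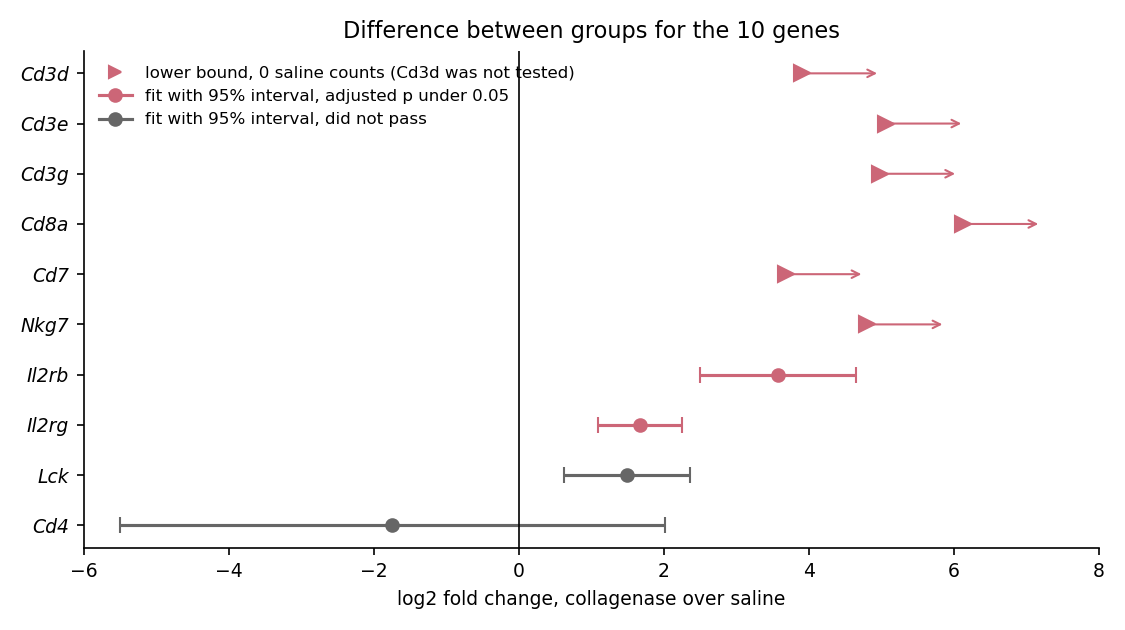
Difference between groups for the 10 genes on the log2 scale (collagenase over saline). Points with bars are fitted fold changes with 95% intervals, and the other marks are lower bounds for the 6 genes with 0 saline counts. The interval of Cd4 spans 0 and is the widest.

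Per length, Il2rg stood above the other 9 genes in the collagenase libraries at 2.74 ± 0.842 FPKM (SD, n = 3), and its range did not overlap that of the next gene, Lck, at 0.947 ± 0.278 FPKM. Below it came Nkg7 at 0.823 ± 0.5, Cd3g at 0.799 ± 0.347, Cd3e at 0.595 ± 0.322 and Cd8a at 0.592 ± 0.405 FPKM. The lowest were Cd4 at 0.441 ± 0.453, Cd7 at 0.337 ± 0.0904, Il2rb at 0.334 ± 0.123 and Cd3d at 0.241 ± 0.181 FPKM. In this order 8 of the 9 pairs of neighbours had overlapping ranges, so only Il2rg stood apart from the gene next to it. Genes further apart in the order could be separate: the ranges of Lck and Cd3g lay wholly above those of Cd7, Il2rb and Cd3d. In the saline libraries Cd4 reached 3.59 FPKM in replicate 3 and was at 0.182 and 0.114 FPKM in replicates 1 and 2.

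**Figure D3:**
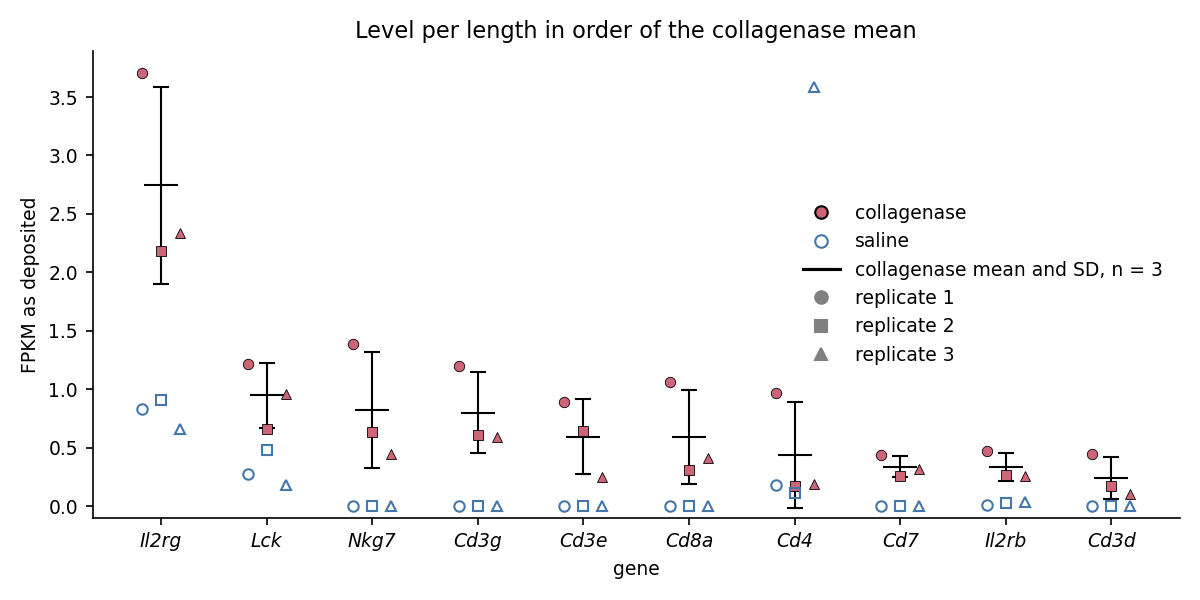
FPKM of each of the 10 genes in the 3 collagenase and 3 saline libraries, ordered by the collagenase mean, which is drawn with its SD (n = 3). Il2rg is the only gene whose collagenase libraries lie wholly above those of the next gene in the order.

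Collagenase replicate 1 had the highest level of all collagenase libraries for each of the 10 genes. The same library was highest for 325 of the 366 genes called higher in the whole table (88.8%), so this order was not particular to them. Its level over the mean of collagenase replicates 2 and 3 was 4.96 for Cd4, 2.99 for Cd3d, 2.70 for Cd8a and 2.42 for Nkg7. It was 1.88 for Cd3g, 1.85 for Cd3e, 1.68 for Il2rb, 1.53 for Il2rg, 1.39 for Cd7 and 1.38 for Lck, against a median of 1.40 over all genes called higher.

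The mean shares of the 3 CD3 genes were 52.2%, 29.3% and 18.5% in collagenase and 0 in saline. Among annotated genes with at least 50 summed counts, the 5 with the nearest shares were Atp6v0d2, Lyz2, Saa3, Clec7a and Gpnmb, with likeness values from 0.0199 for Atp6v0d2 to 0.0434 for Gpnmb over the 6 libraries, and 3 of the 5 were also found from FPKM. Lyz2, Clec7a and Gpnmb are genes of macrophages and activated microglia. That none of the 5 is a T cell gene says little, because the search left out Cd8a, Nkg7 and the other members. Nkg7 had shares of 54.8%, 26.6% and 18.6% in collagenase and 0 in saline, close to the CD3 mean. Lyz2 rose from 8.65 ± 1.62 to 299.6 ± 135 CPM (SD, n = 3 each).

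Other genes of the pathway were taken from lists chosen with earlier results of these data known. For list genes that passed the count filter only through the collagenase libraries, the filter also favoured a higher collagenase level. Of 16 listed genes of the receptor and T cell surface, 13 were in the files used and 4 were tested. The test called 2 higher and 0 lower, with a median log2 fold change of 2.99 against -0.02 over all tested genes. Cd28, the main co-stimulatory receptor, went from 0.0496 ± 0.0457 to 0.838 ± 0.433 CPM (SD, n = 3 each), a log2 fold change of 3.93 (SE 0.74, edgeR with Benjamini-Hochberg adjusted p = 0.0338). Cd6, a surface glycoprotein of T cells, had 3 counts over the saline group, and its level was 21 times as high after collagenase (exact 95% counting interval 6.90 to 104.5, adjusted p = 0.0488 by edgeR with Benjamini-Hochberg adjustment). The constant region genes Trac, Trbc1 and Trbc2 were not analysed here.

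Of 28 genes of receptor signalling 25 were tested, and 5 were higher and 0 lower, with a median log2 fold change of 0.60. Those that rose were Ptpn6 (the phosphatase SHP-1, log2 fold change 1.99, SE 0.22), Ptprc (2.40, SE 0.32), Vav1 (an exchange factor of blood cells, 1.81, SE 0.25), Fyb (an adaptor, 2.27, SE 0.36) and Lcp2 (the adaptor SLP-76, 1.36). Their Benjamini-Hochberg adjusted p-values by edgeR were 0.00437, 0.0100, 0.0119, 0.0178 and 0.0453. All 5 are also made by myeloid cells. Zap70, the kinase that binds the phosphorylated receptor, was looked at after its values were seen and did not pass: it was at 8.92, 7.56 and 6.83 CPM in saline and 6.97, 5.30 and 8.08 CPM in collagenase, with an adjusted p of 0.786 by edgeR with Benjamini-Hochberg adjustment. Per length its saline level, 3.87, 3.21 and 2.6 FPKM, was above that of all 10 genes except Cd4 in replicate 3.

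Of 17 genes of cytotoxic granules and natural killer receptors 7 were tested, and 2 were higher and 0 lower, with a median log2 fold change of 2.80. Ccl5, a chemokine of activated T cells and other leukocytes, went from 0.103 ± 0.0916 to 2.38 ± 1.19 CPM (SD, n = 3 each; log2 fold change 4.46, SE 0.70, edgeR with Benjamini-Hochberg adjusted p = 0.0182). Ctsw, a protease of cytotoxic lymphocytes, rose by a log2 fold change of 2.68 (SE 0.49, adjusted p = 0.0314 by the same test). Other effector genes were looked at after their values were seen. Of the 4 listed granzymes, Gzmk and Gzmm were tested and did not pass. Gzmk had 0, 0 and 7 counts in saline and 21, 16 and 20 in collagenase (log2 fold change 2.80, edgeR with Benjamini-Hochberg adjusted p = 0.263), and Gzmm 60, 45 and 18 against 59, 41 and 37 (0.05, adjusted p = 0.982). Fasl, the ligand of a death receptor, was tested and did not pass either (adjusted p = 0.61). The remaining 2 granzymes and perforin were too low to test. Gzma had 5, 0 and 0 counts in saline and 18, 0 and 8 in collagenase, Gzmb 6, 5 and 0 against 29, 0 and 10, and Prf1 (perforin) 0, 2 and 2 against 21, 8 and 6. Ifng had 4 counts in collagenase replicate 1 and none elsewhere. Collagenase replicate 2, which had 22 counts of Nkg7 and 38 of Cd8a, thus had 0 counts of Gzma and Gzmb but 16 of Gzmk and 41 of Gzmm.

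Of 18 genes of the common gamma chain cytokines and their receptors 13 were tested, and 4 were higher and 0 lower, with a median log2 fold change of 0.41. They were Il7r (2.58, SE 0.46), Il4ra (0.75, SE 0.14), Il21r (1.57, SE 0.30) and the kinase Jak3, which binds the gamma chain (0.65, SE 0.13), with Benjamini-Hochberg adjusted p-values of 0.0288, 0.0328, 0.0371 and 0.0496 by edgeR. Il2, the cytokine that Il2rb and Il2rg receive on T cells, had 0 counts in all 6 libraries. Of 10 genes of T cell trafficking all 10 were tested, and 3 were higher and 0 lower, with a median of 1.62: Itgal (an integrin chain, 2.72, SE 0.49), Ccr7 (a chemokine receptor of naive T cells and mature dendritic cells, 4.13, SE 0.76) and Cxcr3 (a chemokine receptor of effector T cells, 3.88, SE 0.80). Their adjusted p-values by edgeR with Benjamini-Hochberg adjustment were 0.0302, 0.0317 and 0.0493. Of 15 T cell transcription factors 13 were tested and edgeR called 0, with 2 at an unadjusted p under 0.05 and 2 called by DESeq2. Their median log2 fold change was 0.05. The 2 under 0.05 were Runx3 (3.77, SE 0.82) and Eomes (3.21, SE 0.87), with edgeR adjusted p-values of 0.0585 and 0.136. Some others were high in saline libraries without CD3 counts, such as Lef1 and Id2 (means of 79.4 and 83.2 CPM).

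**Figure D4:**
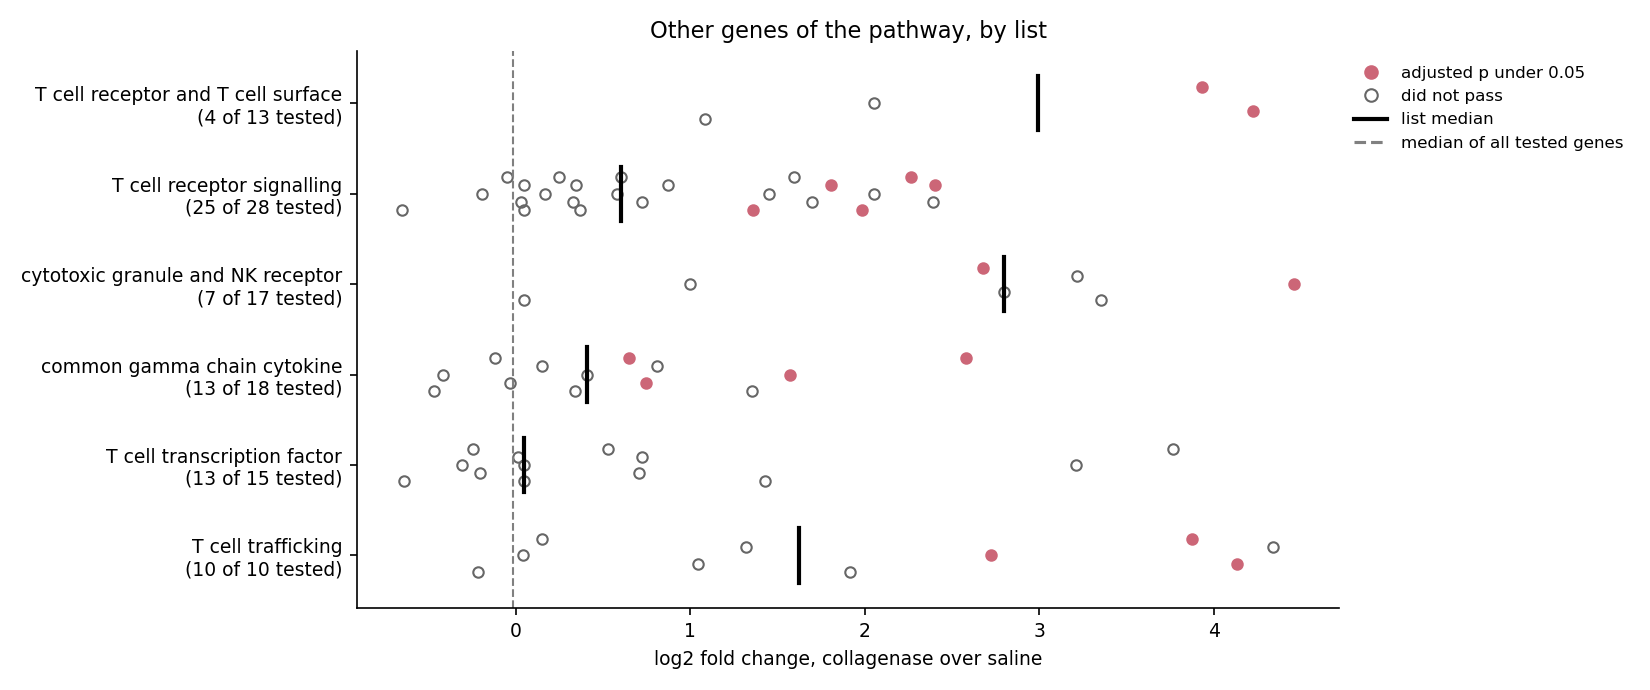
Log2 fold change (collagenase over saline) of every tested gene in 6 lists of related genes. Filled points passed edgeR's test, bars mark list medians, and the dashed line is the median over all tested genes (-0.02). No list has a gene called lower, and the transcription factor list has none called at all.

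Summed markers of other leukocytes were also higher in every collagenase library than in any saline library, but for some lists 1 gene made the difference. The 8 monocyte and macrophage markers summed to 19.5, 24.6 and 19.8 CPM in saline and 492, 297 and 209 CPM in collagenase, with 3 of 8 called higher, among them Lyz2 and Adgre1. Without Lyz2 the sums were 11.4 to 14.2 against 26.2 to 44.2 CPM. Cx3cr1, a chemokine receptor of microglia, was at 32, 32.7 and 35.9 CPM in saline and 80.4, 70.9 and 55.2 CPM in collagenase, and was called higher. The 7 B cell markers summed to 0.969 to 1.37 CPM against 5.57 to 9.01 CPM, with 1 of 4 tested called higher (Cd22). Without Cd22 the sums were 0.653 to 1.16 against 2.02 to 2.69 CPM. The 4 plasma cell markers summed to 2.03 to 2.73 CPM against 6.21 to 11.6 CPM, with 1 of 2 tested called higher (Jchain). Without Jchain the sums were 1.26 to 2.46 against 1.32 to 2.27 CPM, which overlap. The 7 dendritic cell markers summed to 27.4 to 30.4 CPM against 33.7 to 43.6 CPM, with 1 of 6 tested called higher (Itgax). Without Itgax the sums were 27.1 to 30.2 against 24.8 to 29.1 CPM, which overlap. The 8 neutrophil markers summed to 1.17 to 2.01 CPM against 2.85 to 6.50 CPM, with 0 of 3 tested called by edgeR, 2 at an unadjusted p under 0.05 and 1 called by DESeq2, and Camp was at 0 in every library. Their part in the levels of Il2rg, Lck, Il2rb, Cd8a and Nkg7 was not tested.

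Choroid plexus markers and CD3 counts differed between the libraries in the following way. Among saline libraries, with 0 CD3 counts each, choroid plexus markers ran from 20.6 to 2560 CPM. Among collagenase libraries, replicates 1 and 2 had 1790 and 1950 CPM and replicate 3 had 17.5 CPM. Of the 10 genes, Cd3d, Cd3e, Nkg7 and Il2rb were lowest in replicate 3 of these libraries. Cd3g, Cd4, Cd8a, Cd7, Lck and Il2rg were lowest in replicate 2, Cd3g by little (0.645 CPM against 0.648 CPM in replicate 3). The part of choroid plexus tissue in the CD3 levels was not tested. Summed over the 10 genes, levels were 2.82, 3.20 and 15 CPM in saline and 21.6, 10.9 and 11.4 CPM in collagenase. Of the high sum in saline replicate 3, 13.1 CPM was Cd4.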

How the data were processed

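RNA was measured as poly(A) RNA in 6 libraries of VPL/VPM tissue, grouped by sample title. Per the file headers, the values that the authors deposited are raw counts and FPKM, side by side for 26554 features in every library. HISAT2 2.2.1, StringTie, DESeq2, FastQC and GRCm38 are listed without roles in the submitters' processing notes. Not given in the sources used here are the annotation release, the strand setting and how multiply matching reads were treated. Reads of Cd3e and of Cd7 therefore could not be told apart from those of antisense genes that overlap them (Gm48719 and Gm11775). On the same strand, Cd3e overlaps Gm48720 (1206 bases), Lck overlaps Mir8119 (129 bases) and Il2rg overlaps Gm20489 (3878 bases). Gm20489 had 0 counts in every library.

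Symbols came from a reference table by Ensembl identifier (22022 of 22036 matched), positions from GENCODE M21. Counts were filtered by filterByExpr, scaled by TMM (factors 0.898 to 1.063) and tested with the robust quasi-likelihood F-test of edgeR 4.0.16 in R 4.3.3, two-sided, with Benjamini-Hochberg adjustment over 17240 genes. The steps were tested on simulated data. Alternatives used other scalings, no filter, DESeq2 1.42.0, and limma 3.58.1 on log2(FPKM + 0.1), with pseudocounts of 1 and 0.01 as well. For a gene with 0 saline counts the fold is a lower bound against a chosen floor of 3 counts over the group, and not a strict limit. PCR reads are not independent molecules, so floors and intervals cover counting error only.

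The members and gene lists were chosen with earlier results of these data known. Named genes are the 10 members, up to 4 called genes with the smallest p per pathway list and up to 2 per marker list. Also named are list genes at 0 everywhere and the 5 genes outside the members nearest in pattern to the CD3 genes. Some results that this rule takes are not reported here. Any other gene was named after its values were seen. Promoters (RefSeq, 300 bases) were matched by symbol for 7 of the 10 members.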

Additional observations from a re-analysis of the deposited data

How the results depend on the processing

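Of 152 single-gene results recomputed under the alternatives, 126 kept their direction and their side of the threshold, 23 no longer passed and 1 passed in addition (Lck by DESeq2, adjusted p = 0.0233). The other 2 are Cd4, whose direction turned without saline replicate 3 (adjusted p = 0.359) and without saline replicate 3 and collagenase replicate 1 together (0.819). Leaving out 1 library at a time gave Cd4 adjusted p-values from 0.359 to 0.953. Over all genes, 416 were called by edgeR, 788 by DESeq2, 233 by limma on FPKM with no filter, 977 without those 2 libraries together, and 85 to 917 when 1 library was left out at a time. Of the 10 genes described, 7 were called higher, 3 by limma on log2(FPKM + 1), and 0 to 7 when 1 library was left out. The count of 0 came without saline replicate 1, where 9 had an unadjusted p under 0.05 by edgeR, and no other tool was run on those 5 libraries. The cause of these changes was not tested. With total counts in place of TMM, 375 genes were called higher and 29 lower, against 366 and 50, and without saline replicate 3 the split was 503 and 414.

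With the replicate number as a block 302 genes and 6 of the 10 were called, Cd7 being lost (adjusted p = 0.112). Same-numbered libraries deviated together with correlations of 0.0439, 0.107 and 0.203. Saline replicates 2 and 3 correlated best with the same-numbered collagenase library, and saline replicate 1 with collagenase replicate 2 (0.0759). The labels do not say that a number marks a shared batch, so the main test did not pair libraries. Whether same-numbered libraries shared a batch or a dissection was not tested. At these depths a gene with 0 counts in the saline group may still be present at a level near the floor of 0.0266 CPM, which is not a strict maximum.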
